A study of Mus musculus with 36 samples.

Results

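Heart apex of mice lacking Klf15, the gene of the zinc-finger transcription factor KLF15, was compared between midnight and noon by RNA sequencing. The libraries used were the 3 of 12 am, read as midnight, and the 3 of 12 pm, read as noon, of the mice labelled cK15. They are 6 of the 36 libraries of the series, in which cK15 and control hearts were taken every 4 h at 6 clock times, 3 libraries to a time. The cK15 animals are labelled as KLF15 knockouts; the labels do not say which part of the gene was removed or in which cells. The control animals carry the alpha-MHC cre transgene, whose promoter is active in heart muscle cells. All were C57BL/6 males of 11 to 12 weeks kept under cycles of 12 h light and 12 h dark; the labels do not state when lights came on. The same 2 times in control hearts (6 libraries) served only to show where the cK15 hearts differed. Levels are FPKM, fragments scaled to gene length and library total. Values of a group are listed in the order of replicates 1, 3 and 4 for cK15 and 2, 3 and 4 for control. The labels do not say that the libraries came from separate animals, so the p-values reflect only how far these libraries spread, and that spread may be technical.

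The circadian clock of mammalian cells is a feedback loop of transcription. The activators BMAL1 (gene Arntl), CLOCK and NPAS2 bind E-box sequences and switch on the genes of the PER and CRY repressors, which later block the activators. A linked loop runs through the nuclear receptors REV-ERB (Nr1d1, Nr1d2), which repress Arntl, and ROR (Rora), which activate it, and proteins such as DBP carry the rhythm to metabolic genes. In heart the clock is known for daily changes in fuel use and contractile function, and KLF15 for its part in lipid and amino acid metabolism.

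Klf15 itself was listed at 0 in all 3 cK15 midnight libraries and at 0.188, 0 and 0 FPKM in the cK15 noon libraries. Control hearts had 2.80, 0.777 and 1.45 FPKM at midnight and 2.04, 0.656 and 1.25 FPKM at noon. Every control library lay above every cK15 library, and the cK15 level was under the limit for testing, a mean of at least 1 FPKM over the 18 cK15 libraries.

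The promoters of 4 clock genes are shown because these genes gave large midnight-noon differences and the first 2 hold the E-box letters CACGTG (in capitals), to which the clock activators bind. They come from the RefSeq table for GRCm38.p6 and are written 5′ to 3′ on the gene's strand, without annotated exons. Ciart, which the deposited table lists as Gm129, was added after its values were seen. Cry1 lies at chr10:85185065-85185304 on the minus strand, Ciart at chr3:95882252-95882478 on the minus strand, Dbp at chr7:45704997-45705087 on the plus strand and Nr1d1 at chr11:98775378-98775627 on the minus strand.
Cry1: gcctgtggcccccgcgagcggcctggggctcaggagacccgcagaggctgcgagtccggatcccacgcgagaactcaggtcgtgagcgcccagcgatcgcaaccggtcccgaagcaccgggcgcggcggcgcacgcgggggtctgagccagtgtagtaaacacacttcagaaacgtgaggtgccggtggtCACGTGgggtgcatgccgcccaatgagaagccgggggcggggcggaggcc
Ciart: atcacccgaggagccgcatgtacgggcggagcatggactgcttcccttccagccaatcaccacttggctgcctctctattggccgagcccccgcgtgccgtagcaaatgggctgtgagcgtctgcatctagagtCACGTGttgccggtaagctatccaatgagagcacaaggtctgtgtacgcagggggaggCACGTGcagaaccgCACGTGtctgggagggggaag
Dbp: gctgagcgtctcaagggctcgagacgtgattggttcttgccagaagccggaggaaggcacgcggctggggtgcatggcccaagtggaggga
Nr1d1: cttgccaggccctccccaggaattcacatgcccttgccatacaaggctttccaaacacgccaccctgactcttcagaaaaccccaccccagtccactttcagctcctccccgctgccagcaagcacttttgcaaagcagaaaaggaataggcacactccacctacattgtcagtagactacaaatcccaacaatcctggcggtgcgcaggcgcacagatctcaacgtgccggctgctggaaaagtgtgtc
In the full windows, from 250 bases before to 50 after the gene start, Cry1 had 1 such E-box, starting 60 bases before the start, and Ciart had 3, starting 116, 58 and 44 bases before it. The Dbp and Nr1d1 windows held none, but sequence outside the windows was not searched. Of 32851 mouse promoter windows of this length, 7.15% held CACGTG. The D-box letters TTATGTAA or TTACGTAA, on either strand, were in 1.056% of them, and TAGGTCA or TGGGTCA, the core of the site bound by ROR and REV-ERB, in 6.453%; none of the 4 windows held either. A match is a run of letters, not a shown site. The genes were shown partly for CACGTG, so how many of the 4 hold it cannot be set against the 7.15%. The RefSeq table was not matched for Bhlhe40.

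The libraries of replicate 1 stood apart from those of replicates 3 and 4 at both times. The 10 most abundant genes took 17.1% of summed FPKM at midnight and 16.9% at noon in replicate 1, against 23.3% to 25.0% in the other 4 libraries. Myl2, a ventricular myosin light chain, had 35773 FPKM at midnight and 32919 FPKM at noon in replicate 1 and 53531 to 68419 FPKM in the others. Among genes under 0.5 FPKM, 29.8% to 34.3% shared 1 ratio (within 0.2%) between any 2 of the 4 libraries of replicates 3 and 4, as whole reads divided by 1 constant would. Between the 2 replicate-1 libraries 4.97% did, and between replicate 1 and the others 0.710% to 0.906%. Since each time holds 1 such library, the time comparison is balanced for it. Absolute depth is unknown, so no counting interval or detection limit is given. An exact 0 was no proof of absence, since Ttn, which encodes titin of the sarcomere, stood at 0 in each of the 36 libraries. The heart muscle markers summed to between 67990 and 113500 FPKM at midnight and between 63100 and 111900 FPKM at noon. No tested member of the 12 lists of cell type markers passed. Of the lymphocyte and fat cell lists no member reached the limit for testing, and of the Schwann and nerve list only 1 did. Of the near-identical hemoglobin genes, Hba-a1 had 1.10, 199 and 86.8 FPKM and Hba-a2 had 146, 0.0643 and 0.0648 FPKM at midnight. At noon Hba-a1 had 120, 204 and 93.0 FPKM and Hba-a2 had 19.1, 0.0664 and 0.0630 FPKM, so the split between the copies differed most in replicate 1 at midnight. The blood markers summed to 107 to 230 FPKM at midnight and 114 to 229 FPKM at noon. Lymphocyte markers summed to at most 2.25 FPKM, with Cd3e listed at 0, and fat cell markers to at most 0.841 FPKM, with Retn, Plin1 and Lep listed at 0.

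In cK15 hearts, 13 genes differed between midnight and noon, 4 higher and 9 lower at midnight. The higher ones described here were the clock gene Cry1, the glutathione transferase gene Gsta3 and 2810403A07Rik. The lower ones were the clock genes Dbp, Nr1d1 and Bhlhe40, Sphk2 beside Dbp, the mitochondrial uncoupling protein gene Ucp3, the matrix genes Col3a1 and Fbn1, the ubiquitin ligase gene Fbxo32, and Tcp11l2. These calls are 0.124% of the 10516 genes tested (0.038% higher and 0.0856% lower at midnight), at an adjusted p under 0.05 in limma, with Benjamini-Hochberg adjustment over all genes tested; 497 genes (4.73%) had an unadjusted p under 0.05. In all 13 the 3 midnight libraries did not overlap the 3 noon libraries, so the ratio had 1 direction in every replicate number. Of all genes tested, 4.36% had every midnight library above every noon library and 4.81% had every one below. With the replicate number as a block, 25 genes passed (0.238%), 9 higher and 16 lower, among them all 13. Whether a replicate number marks the same unit at every time was not tested.

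The count rested on each of the 6 libraries. Leaving out midnight replicates 1, 3 or 4 left 6, 6 and 6 calls, and leaving out noon replicates 1, 3 or 4 left 4, 7 and 7. Cry1, Dbp, Gsta3 and Sphk2 passed in all 6 of these fits, Col3a1 in 3, Bhlhe40, Fbxo32 and Ucp3 in 2, Nr1d1 in 1, and Fbn1, Tcp11l2 and 2810403A07Rik in none. Without the libraries that stand apart, 1 at each time (replicate 1, or replicate 4 at 8 pm), no gene passed in limma (smallest adjusted p 0.0577, with 533 genes at an unadjusted p under 0.05). In that fit all 13 had an unadjusted p under 0.05, with log2 fold changes 0.818 to 1.10 times those above. Their direction could not turn, since their midnight and noon libraries did not overlap. The 13 were chosen on data that include the libraries left in, so these values are no independent support. When both genotypes were fitted together without these libraries, an alternative chosen after seeing the data, 6 genes passed, 5 of them among the 13.

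**Figure D1:**
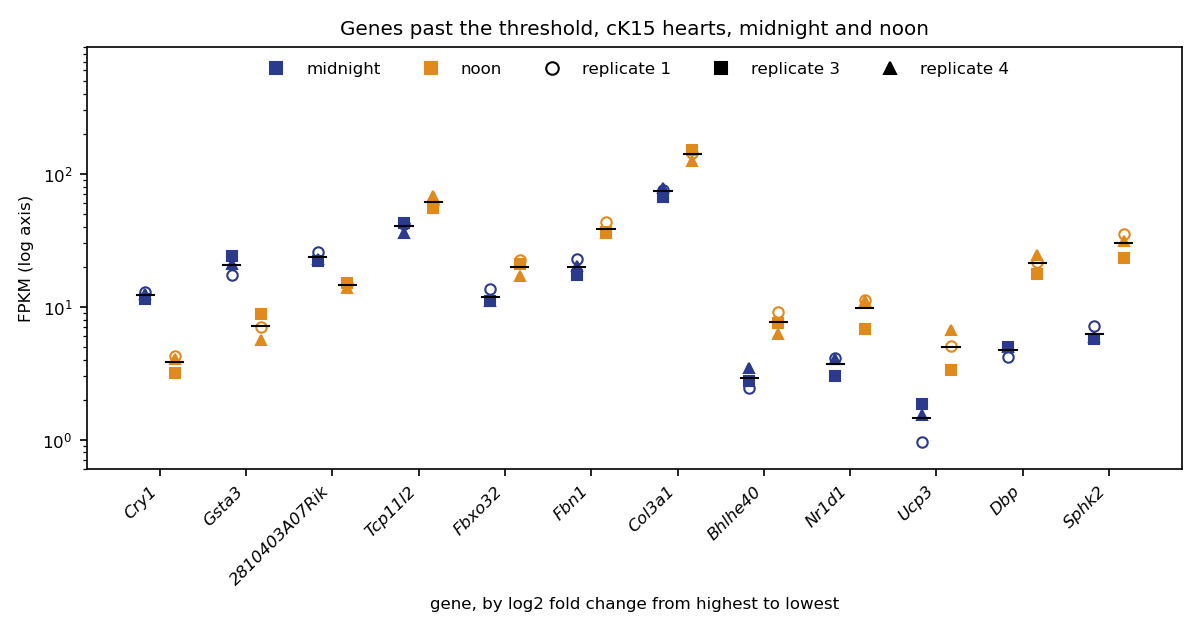
FPKM (log axis) of 12 of the 13 genes that passed the test in cK15 hearts, at midnight (blue, left) and noon (orange, right); symbols mark replicates 1, 3 and 4 and black lines the means. In each gene the midnight and noon symbols do not overlap: 3 genes lie higher at midnight, from Cry1 to 2810403A07Rik, and 9 lower, from Tcp11l2 to Sphk2.

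Among the activators of the clock, 4 genes are described. Arntl (chr7:113178471-113314126), the gene of BMAL1, had 15.0, 13.7 and 12.7 FPKM at midnight, against 2.80, 6.40 and 4.80 FPKM at noon. Its midnight libraries were all above noon, but the noon libraries were spread, and the change of 1.44 on the log2 scale (SE 0.29 in limma) passed with the replicate block and not without it (adjusted p = 0.0757 without it and 0.0259 with it). Npas2 had 1.71, 1.54 and 1.27 FPKM at midnight and 1.11, 0.801 and 1.12 FPKM at noon, without overlap and without a call (0.32 ± 0.18). Clock (0.10 ± 0.14) and Rora (-0.12 ± 0.18) did not pass, and their libraries overlapped. Over all genes tested the median log2 fold change was 0.007.

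Of the 10 repressor genes, 1 was called higher (Cry1) and 2 lower (Nr1d1 and Bhlhe40), with a median of -0.56. Cry1 (chr10:85131700-85185054), the repressor of the CRY family that peaks late in the cycle, had 12.9, 11.5 and 12.6 FPKM at midnight, against 4.28, 3.18 and 4.03 FPKM at noon. It was the gene of the largest upward change among the calls, 1.47 ± 0.20 (adjusted p = 0.00348), close in all 3 replicate numbers (1.39, 1.58 and 1.43). Cry2 had 7.19 to 8.80 FPKM at midnight and 6.21 to 7.16 FPKM at noon, without overlap and without a call (0.24 ± 0.16).

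Nr1d1 (chr11:98767932-98775377), which encodes REV-ERB alpha, had 4.10, 3.03 and 4.04 FPKM at midnight, against 11.3, 6.77 and 11.0 FPKM at noon. All 3 midnight libraries were lower (-1.16 ± 0.21, adjusted p = 0.0422). Its paralog Nr1d2, for REV-ERB beta, had 11.7, 6.46 and 7.94 FPKM at midnight and 22.6, 14.4 and 16.04 FPKM at noon, without overlap but without a call (-0.96 ± 0.26, adjusted p = 0.381). Bhlhe40 (chr6:108660629-108666925), whose protein DEC1 competes for E-boxes, had 2.42, 2.75 and 3.47 FPKM at midnight, against 9.20, 7.54 and 6.28 FPKM at noon. It fell by 1.15 on the log2 scale (SE 0.18, adjusted p = 0.0122). Its relative Bhlhe41 did not pass (-0.46 ± 0.17) though its libraries did not overlap. Ciart (Gm129 in the table), a repressor that binds the activator complex, had 3.37, 2.90 and 3.28 FPKM at midnight, against 8.01, 5.95 and 8.66 FPKM at noon. Like Arntl it passed with the block and not without it (-1.02 ± 0.20, adjusted p = 0.0687 without it and 0.0377 with it).

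The 3 PER repressor genes gave no call. Per1 had 4.01, 3.76 and 1.86 FPKM at midnight and 4.26, 4.62 and 7.42 FPKM at noon; the spread between replicates was large at both times (-0.62 ± 0.32). Per2 overlapped (3.72, 3.15 and 4.18 FPKM at midnight, 3.59, 2.48 and 2.77 FPKM at noon; 0.25 ± 0.16). Per3 had 4.65, 4.15 and 4.28 FPKM at midnight and 7.25, 4.95 and 7.80 FPKM at noon, so every midnight library was lower, without a call (-0.50 ± 0.22). In all, 2 of the 10 repressor genes had every midnight library above every noon library and 7 had every one below, against 4.36% and 4.81% of all genes tested.

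The output factor Dbp (chr7:45705100-45710203), a PAR bZIP protein that activates D-box genes, had 4.19, 4.94 and 4.97 FPKM at midnight, against 21.8, 17.6 and 24.6 FPKM at noon. Midnight lay far below noon in every library (-1.96 ± 0.26, adjusted p = 0.00348). Sphk2 (chr7:45709463-45718002), for the sphingosine kinase SPHK2, had 7.22, 5.69 and 5.93 FPKM at midnight, against 35.2, 23.1 and 31.4 FPKM at noon (-2.07 ± 0.27, adjusted p = 0.00348). The 2 genes lie on opposite strands and overlap at their ends, and whether the counting used strand is not given, so reads in the overlap cannot be told apart and the value of Sphk2 is uncertain. Tef, the other PAR bZIP gene tested, did not pass (0.03 ± 0.19). Hlf and Nfil3 were under the limit for testing. Nfil3, whose protein E4BP4 represses D-box genes, had 1.10, 0.889 and 0.589 FPKM at midnight and 0.278, 0.320 and 0.307 FPKM at noon, and was thus higher in every midnight library. Of the 6 genes tested of kinases, ligases and a deubiquitinase that act on clock proteins, none passed (median -0.091), among them Usp2 (-0.16 ± 0.20), Csnk1d (-0.15), Csnk1e (-0.08), Btrc (-0.09) and Gsk3b (0.09 on the log2 scale). Btrc was without overlap, with 5.01 to 5.56 FPKM at midnight and 5.66 to 5.87 FPKM at noon. Fbxl21 was under the limit for testing.

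The 6 times place these 2 points on each gene's daily course. In cK15 hearts mean Cry1 was highest at midnight (12.3 FPKM) and lowest at noon (3.83 FPKM), so that the comparison spans its whole range. Arntl stood at 13.8, 25.6, 24.2, 4.67, 1.36 and 1.59 FPKM from 12 am to 8 pm, so midnight caught it before its highest level and noon after. Mean Dbp was 4.70, 2.88, 3.25, 21.3, 26.5 and 14.2 FPKM over the same times. Per2 stood at 3.68 FPKM at midnight and 2.94 FPKM at noon, on either side of its lowest mean of 0.814 FPKM at 8 am, and its highest of 8.57 FPKM came at 8 pm. Of the 13 calls, 3 had their highest mean of the 6 at midnight, 2 at noon, 5 at 4 pm, 2 at 8 am and 1 at 8 pm; 5 had their lowest at midnight and 3 at noon.

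**Figure D2:**
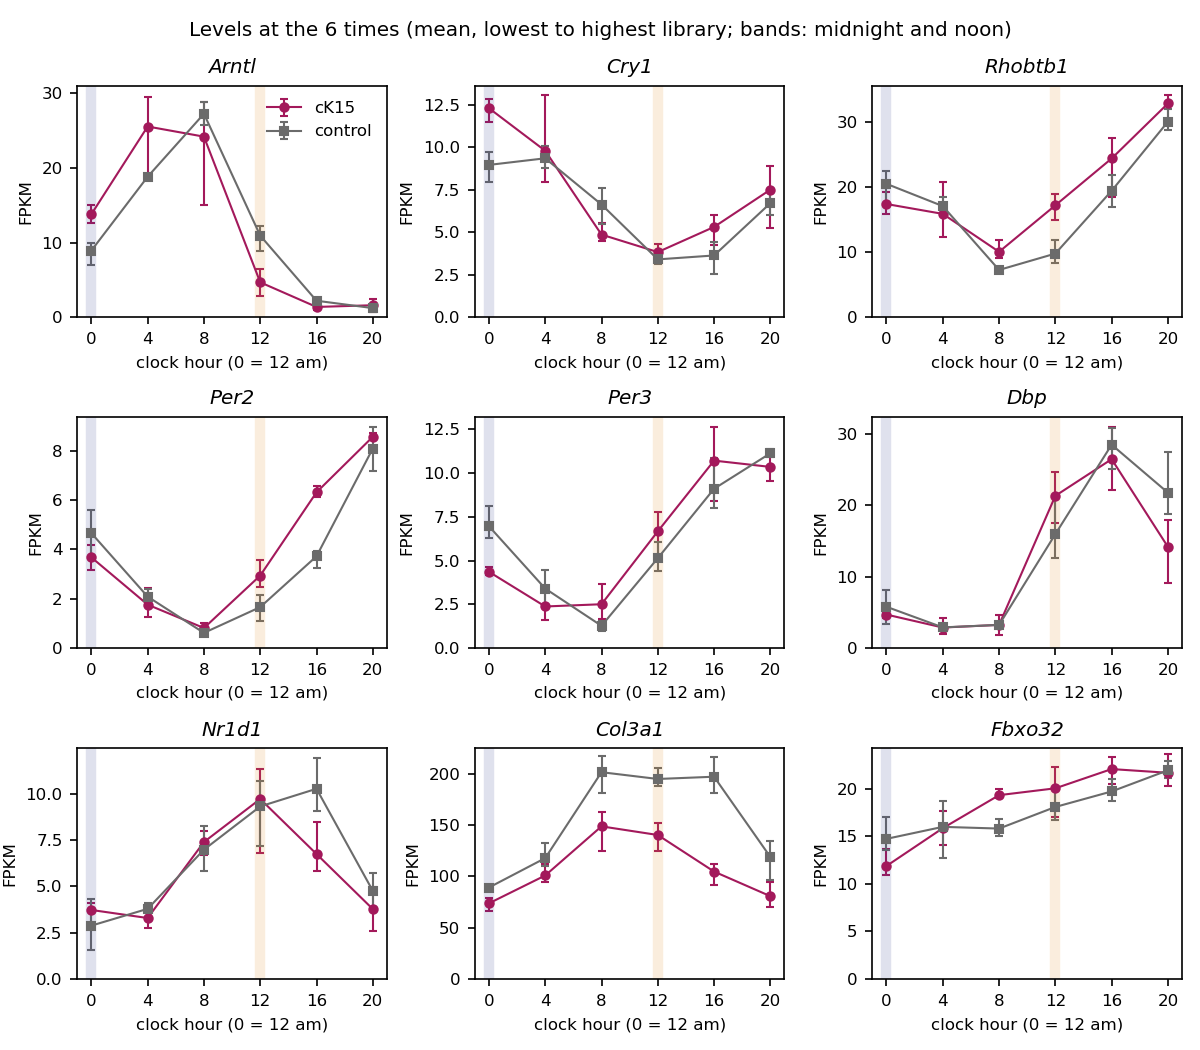
FPKM of 9 genes at the 6 clock hours in cK15 (red circles) and control hearts (grey squares); points are means of 3 libraries, bars run to the lowest and highest library, and bands mark midnight (0) and noon (12). Cry1 in cK15 hearts is 12.3 FPKM at midnight and 3.83 FPKM at noon, the ends of its range, whereas Per2 (3.68 and 2.94 FPKM) stands on either side of its trough.

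The extracellular matrix genes Col3a1 and Fbn1 were lower at midnight. Col3a1 (chr1:45311538-45349706), which encodes the main chain of type III collagen, had 76.0, 66.4 and 78.6 FPKM at midnight, against 144, 152 and 125 FPKM at noon. It fell by 0.92 on the log2 scale (SE 0.14, adjusted p = 0.00762). Fbn1 (chr2:125300594-125506485), for the microfibril protein fibrillin-1, had 22.7, 17.3 and 20.2 FPKM at midnight, against 43.4, 36.3 and 36.2 FPKM at noon (-0.91 ± 0.17, adjusted p = 0.0466); it is in no list. Of 17 matrix genes tested, 1 was called lower and none higher, with a median of -0.35. Another 5 had every midnight library below every noon library without a call, namely Col1a1, Col4a1, Col4a2, Col5a3 and Col6a1, and none had every one above. Of all genes tested, 4.81% lay below and 4.36% above in this way. Col4a1, a basement membrane collagen, had 89.0, 95.0 and 114 FPKM at midnight and 130, 123 and 148 FPKM at noon (-0.43 ± 0.14). In bulk tissue, fewer cells of a type and less RNA per cell cannot be told apart. The 7 fibroblast markers summed to 1360 to 1550 FPKM at midnight and 1165 to 1464 FPKM at noon, none was at 0 in all 6 libraries, and of the 6 tested 1 (Col1a1) did not overlap. Their part in the collagen values was not tested.

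Among genes of fuel use, Ucp3 passed. Ucp3 (chr7:100472991-100486432), the uncoupling protein of muscle mitochondria and a gene known to respond to fatty acids, had 0.953, 1.85 and 1.53 FPKM at midnight, against 5.05, 3.33 and 6.63 FPKM at noon (-1.28 ± 0.21, adjusted p = 0.0183). Of the 29 genes of fatty acid uptake and oxidation tested it was the only call, and the median was 0.088. Every midnight library was above noon for Lpl, Cpt1b, Hadha and Acot2, and below for Cpt1a and Ucp3, against 4.36% and 4.81% of all genes tested. Cpt1b, the muscle form of the enzyme that admits fatty acids to mitochondria, had 589 to 605 FPKM at midnight and 508 to 552 FPKM at noon (0.16 ± 0.09) without a call.

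Lipid droplet genes gave no call among 14 (median 0.133). G0s2, an inhibitor of the lipase ATGL, came nearest, with 39.5, 26.8 and 29.7 FPKM at midnight and 15.6, 12.5 and 19.0 FPKM at noon, without overlap (0.98 ± 0.21, adjusted p = 0.119). The droplet coat genes Plin2, Plin4 and Plin5 also did not overlap and lay higher at midnight, with log2 fold changes of 0.36, 0.42 and 0.17 and no call, while Angptl4, an inhibitor of lipoprotein lipase, lay lower (-0.84 ± 0.40). Of the 14, 4 thus had every midnight library above noon and 1 every one below, against 4.36% and 4.81% of all genes tested. In control hearts 4 of 14 lay above and 0 below in this way, against 8.49% and 5.66%. Of the 27 genes of glucose and glycogen, 20 of branched-chain amino acid breakdown and 18 of oxidative phosphorylation, none was called, with medians of 0.051, 0.025 and 0.079. Their genes of smallest p were Pfkfb1 (-0.34 ± 0.22), Mccc1 (0.14 ± 0.10) and Sdha (0.17 ± 0.11). None of the 27 glucose genes was without overlap in either direction.

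Gsta3 (chr1:21240565-21265575), an alpha-class glutathione transferase gene, had 17.2, 24.3 and 20.9 FPKM at midnight, against 7.03, 8.86 and 5.66 FPKM at noon. All midnight libraries lay above noon (1.42 ± 0.20 on the log2 scale, adjusted p = 0.00553), and it was the only call among 17 genes of oxidant defence (median 0.020). Alpha-class transferase genes have near copies, between which the counting could split reads. Fbxo32 (chr15:58175879-58214892), for the muscle ubiquitin ligase atrogin-1, had 13.7, 11.0 and 11.0 FPKM at midnight, against 22.3, 20.8 and 17.0 FPKM at noon (-0.71 ± 0.12, adjusted p = 0.0344). Trim63, for the other muscle ligase MuRF1, had 84.6, 116 and 91.2 FPKM at midnight and 119, 151 and 156 FPKM at noon and passed with the block and not without it (-0.54, adjusted p = 0.604 without it and 0.0259 with it). Of 13 genes of autophagy and protein degradation, 1 was called lower without the block and 2 with it (median 0.056). Tcp11l2 (chr10:84576947-84614355) had 42.3, 42.3 and 36.1 FPKM at midnight, against 59.0, 55.5 and 68.3 FPKM at noon (-0.59 ± 0.11, adjusted p = 0.0466). The predicted gene 2810403A07Rik (chr3:88685428-88712933; Khdc4 in RefSeq, for a KH-domain protein), outside the rule for naming genes and named because only 4 genes were higher, had 25.9, 22.1 and 23.0 FPKM at midnight, against 14.8, 15.2 and 13.8 FPKM at noon (0.66 ± 0.12, adjusted p = 0.0422).

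The muscle genes Tcap and Ankrd1 passed with the block and not without it. Tcap, for the Z-disc protein telethonin, had 117, 134 and 111 FPKM at midnight, against 226, 274 and 284 FPKM at noon (-1.11, adjusted p = 0.119 without the block and 0.00957 with it). Ankrd1, for the stretch-responsive protein CARP, had 824, 1459 and 959 FPKM at midnight, against 1731, 2244 and 1878 FPKM at noon (-0.89, adjusted p = 0.119 without the block and 0.00607 with it). Both lay lower at midnight in every library. No other gene of the 11 sarcomere and 10 hypertrophy genes tested was without overlap, and none passed without the block; the medians were 0.058 and -0.108. The other genes that the block added were Aldh2, Ciapin1, D330022K07Rik and Slc46a3, higher at midnight, and Kdelr3, Skap2 and Srpx2, lower. Aldh2, the mitochondrial aldehyde dehydrogenase gene, averaged 49.3 ± 6.8 FPKM at midnight and 34.8 ± 3.3 FPKM at noon (SD, n = 3 each; limma adjusted p = 0.0316 with the block).

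**Figure D3:**
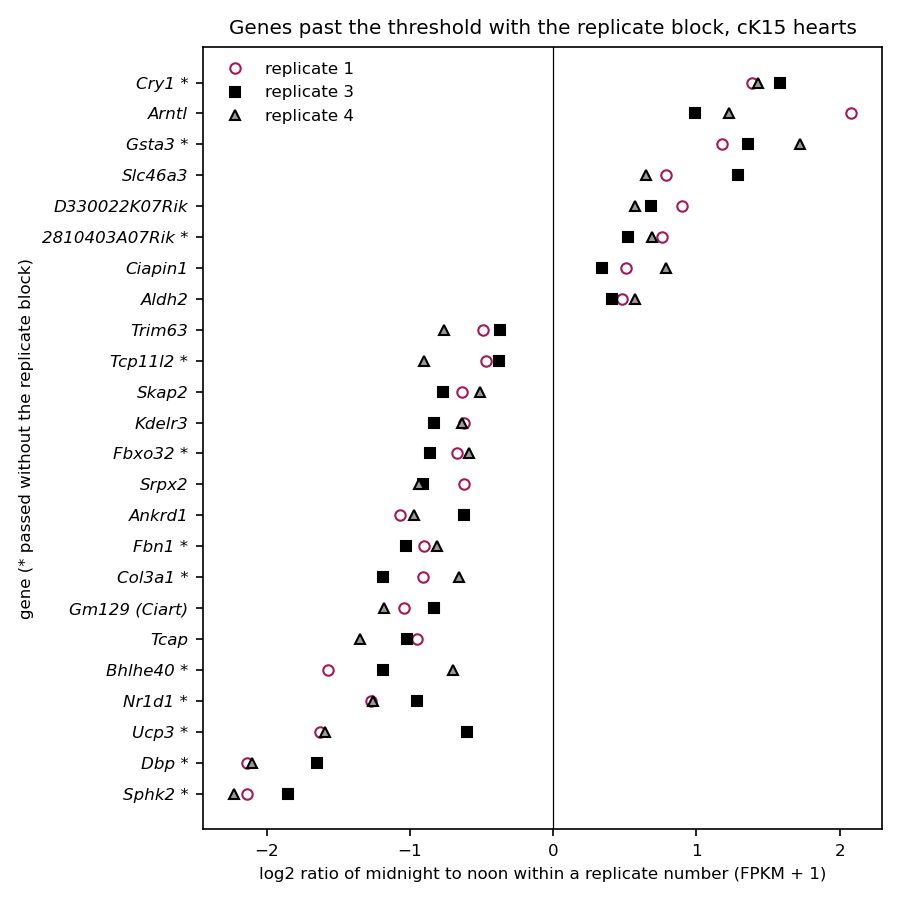
Log2 ratio of midnight to noon (FPKM + 1) within replicate numbers 1, 3 and 4 of cK15 hearts, for 24 of the 25 genes that passed with the replicate block; an asterisk marks the 12 that also passed without it. Every gene keeps 1 direction in all 3 numbers; Arntl is spread most among the higher genes, with 2.08 in replicate 1 against 0.99 and 1.23 in replicates 3 and 4.

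The remaining lists gave no call in cK15 hearts. Among 11 heat shock and cold-inducible genes, 4 had every midnight library above noon (Hspa8, Hsph1, Hspa4 and Dnaja1) and none below, with a median of 0.191. The shares over all genes tested were 4.36% above and 4.81% below. Hspa8, a constitutive chaperone gene, had 353, 342 and 406 FPKM at midnight and 216, 294 and 296 FPKM at noon (0.46 ± 0.17, adjusted p = 0.808). Of 14 genes that respond to glucocorticoids (median 0.087), Fkbp5 had the smallest p, with 7.33, 4.28 and 7.01 FPKM at midnight and 2.47, 3.33 and 2.94 FPKM at noon (0.86 ± 0.27, adjusted p = 0.627). None of 17 ion channel and calcium handling genes (median -0.037) and none of 7 Kruppel-like factor genes (median -0.019) was without overlap; Slc8a1 (-0.31 ± 0.22) and Klf9 (-0.35 ± 0.20) had the smallest p of these lists. Insulin and growth signalling (12 genes, median 0.014), endoplasmic reticulum folding (14, 0.059), immediate early (6, -0.034), sterol (11, 0.017), NAD and sirtuin (8, -0.032) and cell cycle genes (8, -0.102) had no call, and their genes of smallest p were Foxo3 (0.64), Herpud1 (0.40), Atf3 (0.55), Cyp51 (-0.34), Sirt7 (-0.59) and Wee1 (0.55 on the log2 scale).

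**Figure D4:**
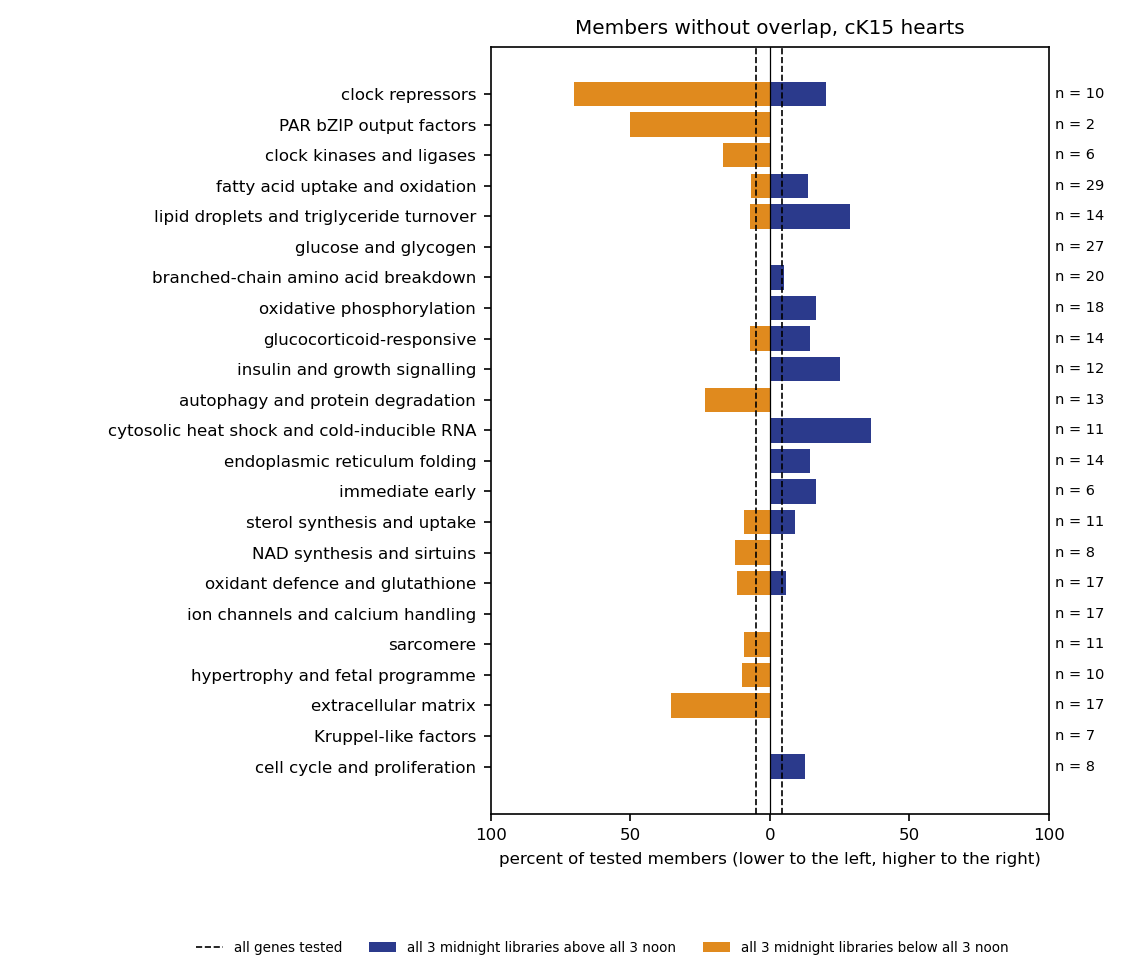
Percent of tested members (n at right) for which all 3 midnight libraries lay above (blue, right) or below (orange, left) all 3 noon libraries of cK15 hearts. Each list is shown except the clock activators. Dashed lines give the same over all genes tested, 4.36% above and 4.81% below. Clock repressors (7 of 10) and matrix genes (6 of 17) extend to the lower side, and heat shock genes (4 of 11) to the higher side.

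The same comparison in control hearts called 65 of 10668 genes (0.609%), 41 higher (0.384%) and 24 lower (0.225%) at midnight, and 122 (1.14%) with the block. Under quantile normalization the control split was 39 higher and 36 lower. In control hearts 8.49% of genes had every midnight library above noon and 5.66% had every one below, against 4.36% and 4.81% in cK15 hearts. The 2 genotypes shared 9 calls, all in 1 direction, which is 69.23% of the cK15 calls and 13.85% of the control calls. All 13 cK15 calls had the same sign in control hearts and 12 had an unadjusted p under 0.05 there. Of all 10668 genes tested in control hearts, 1009 had such a p in limma. Of the 65 control calls, 64 were tested in cK15 hearts, all 64 with the same sign and 37 with an unadjusted p under 0.05. Such a p was found in limma for 4.73% of all genes tested in cK15 hearts. The share of all genes with the same sign in both genotypes is not given. The count in control hearts also moved with single libraries: it was 33 without midnight replicate 2, 41 without midnight replicate 4, 30 without noon replicate 3 and 26 without noon replicate 4.

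A call in one genotype alone is no difference between them, so the difference of the 2 midnight-noon changes was tested in all 36 libraries. No gene of 10599 passed in limma (0.0%; smallest adjusted p 0.350), and 235 (2.22%) had an unadjusted p under 0.05. Of the 69 genes called in either genotype, 25 had an unadjusted p under 0.05 for the difference. These 69 were chosen on the same midnight and noon libraries, which favours small p-values. Their share therefore cannot be set against the 2.22%. Arntl had the smallest p: control hearts had 9.83, 9.96 and 6.98 FPKM at midnight and 8.85, 11.7 and 12.2 FPKM at noon, a change of -0.27 ± 0.17, against 1.44 ± 0.29 in cK15 hearts. The difference of 1.70 ± 0.35 on the log2 scale had an unadjusted p of 3.3e-05, an adjusted p of 0.350 and, with the block, an adjusted p of 0.0894. Arntl was not flat in control hearts, with means of 8.92, 18.8, 27.3, 10.9, 2.19 and 1.205 FPKM from 12 am to 8 pm. Midnight and noon lay there on either side of its highest mean, at 8 am. Rhobtb1 had 19.2, 15.9 and 17.2 FPKM at midnight and 19.0, 15.0 and 17.7 FPKM at noon in cK15 hearts, where it overlapped. In control hearts it had 21.8, 17.3 and 22.4 FPKM at midnight and 11.9, 9.19 and 8.27 FPKM at noon (1.00 ± 0.13, adjusted p = 0.00144), and the difference was -0.98 ± 0.23 (adjusted p = 0.866, and 0.0894 with the block). With a term for the libraries that stand apart, 3 genes passed for the difference, Usp2 (adjusted p = 0.0213), Arntl and Rhobtb1 (adjusted p = 0.0294 each).

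Per2, a repressor gene called in control hearts like Cry1 and Nr1d1 (Per2 1.09 ± 0.16, adjusted p = 0.00283), had 0.25 ± 0.16 in cK15 hearts and a difference of -0.84 ± 0.22 (adjusted p = 0.998). At noon it had 3.59, 2.48 and 2.77 FPKM in cK15 hearts and 2.15, 1.11 and 1.73 FPKM in control hearts, levels from 2 separate tables. Wee1, a cell cycle kinase gene under clock control in mouse liver, was likewise called in control hearts (1.41 ± 0.19, adjusted p = 0.00148) and not in cK15 hearts (0.55 ± 0.24; difference -0.86 ± 0.31, adjusted p = 1.00). Commd6, the fourth gene by p, had 7.11, 6.40 and 6.80 FPKM at midnight and 15.3, 12.8 and 12.2 FPKM at noon in cK15 hearts, without overlap, and changed by -0.89 ± 0.21 there and by 0.25 in control hearts, where the libraries overlapped.

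Ucp3 overlapped in control hearts, with 7.60, 8.33 and 9.21 FPKM at midnight and 8.27, 16.4 and 11.7 FPKM at noon (-0.44 ± 0.36, adjusted p = 0.817). Its difference was -0.84 ± 0.44 (adjusted p = 1.00). Col3a1 and Fbn1 fell at midnight in control hearts too (by 1.12 and 1.20 on the log2 scale, adjusted p = 0.000232 each), and 4 of 17 matrix genes were called lower there. Fatty acid genes had a median of 0.088 in cK15 hearts and 0.279 in control hearts, with 4 and 13 of 29 above noon in every midnight library. Genes of branched-chain amino acid breakdown had medians of 0.025 and 0.235, with 1 of 20 in cK15 hearts and 7 of 20 in control hearts. Over all genes tested, 4.36% in cK15 hearts and 8.49% in control hearts were above noon in this way. The median difference was -0.211 over the fatty acid genes and -0.232 over the branched-chain genes, against -0.029 over all genes, and none of their members passed the test of the difference. Other lists lay further out on either side. Clock repressors had -0.501, NAD and sirtuin genes -0.244 and hypertrophy genes 0.334, so such a shift was not particular to these pathways.

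**Figure D5:**
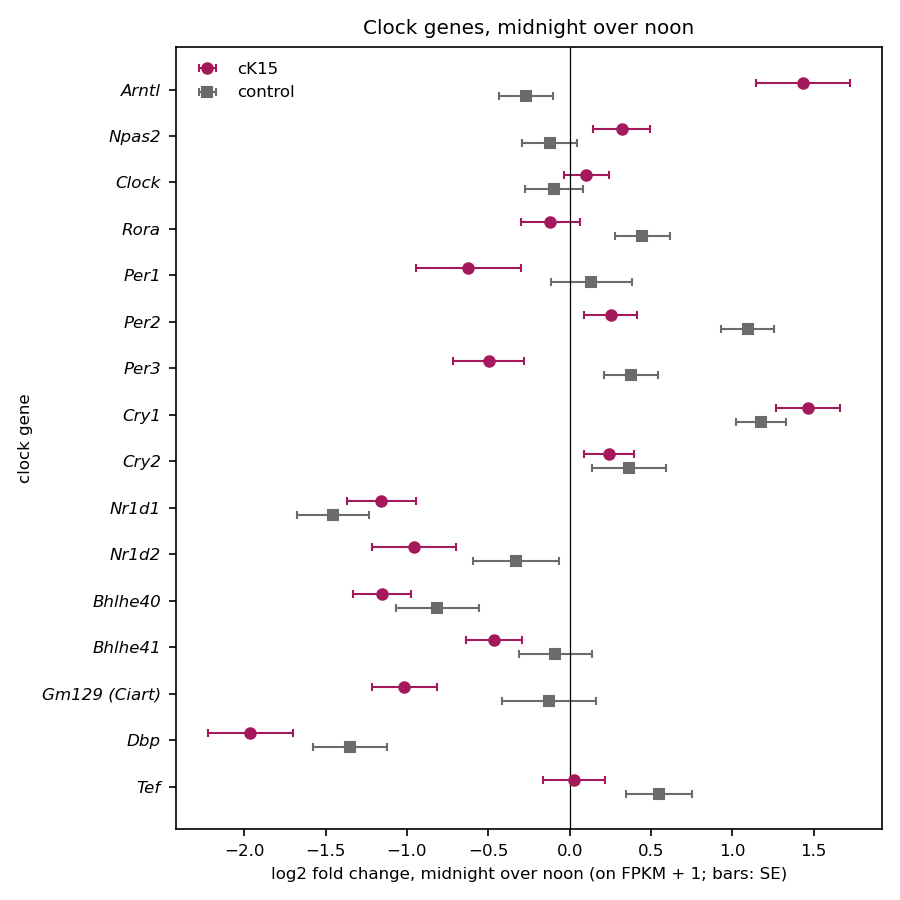
Log2 fold change of midnight over noon (FPKM + 1) of 16 clock genes in cK15 (red circles, upper) and control hearts (grey squares, lower); bars are SE from limma. Cry1 (1.47 and 1.18), Nr1d1 and Dbp lie on the same side in both, while Arntl is 1.44 in cK15 and -0.27 in control hearts; no difference between the genotypes passed the test.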

How the data were processed

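Ribosome-depleted stranded total RNA of heart apex was sequenced as 100 bp pairs, per the labels' protocols. The authors deposited FPKM in a table for each genotype, 1 column per library and 23352 gene entries. GSNAP, HTSeq and mm10 are named in the submitters' processing notes, with no version or role; the annotation used and the program that gave FPKM are not given here. Of the entries, 27 symbols had been turned into dates and 2 were repeated; these were tested but not named. Because FPKM is relative to the library total, abundant genes can shift the values of the rest.

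Here log2(FPKM + 1) was fitted with limma 3.58.1 in R 4.3.3, with trended, robust variance moderation, over the 18 libraries of a genotype with 6 time means, for genes with a mean of at least 1 FPKM. The difference between genotypes was fitted over all 36 libraries with 12 group means. P-values were adjusted by Benjamini-Hochberg over all genes tested, with a threshold of 0.05. Fold changes on this scale understate those of low genes. Only 3 libraries stand behind each group, and their absolute depth is unknown.

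Whether replicate numbers pair the samples was decided from the correlation of deviations from group means over genes. Same-numbered midnight and noon libraries gave 0.505, 0.35 and 0.265 in cK15 hearts and 0.495, 0.3 and 0.247 in control hearts, and no other pair was above 0.1. Deviations within a group of 3 libraries cancel out, so high values for same-numbered pairs push the others down. The low values of the other pairs are thus partly built in. The highest values, 0.505 and 0.495, came from libraries that stand apart at both times. At 8 pm the cK15 library that stands apart was replicate 4 (16.85% in the most abundant genes), not replicate 1 (23.06%). The numbers were taken as pairs only in the fits with the replicate block. Whether a number marks the same unit at every time was not tested, and calls found only with the block rest on it. The main fits in both genotypes, the main test of the difference and the fits with 1 library left out ignored this pairing. The labels do not say what the numbers mark. Values with the replicate block stand beside the results they change.

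The 24 gene lists, the marker lists and the comparison itself were chosen with earlier results of these data known. Named were the calls without overlap with the largest changes, leaving out predicted genes, every member of the clock lists, up to 4 calls of each other list or else its gene of smallest p, and the 4 genes of smallest p for the difference; further genes were named after their values were seen. Some items, 1 of the calls among them, are not reported here. Libraries that stand apart are those whose 10 most abundant genes take the smallest share in their group. Coordinates are on GRCm38, the build also called mm10. Alternatives covered pseudocount, filter, scaling, samples fitted, moderation, block, libraries that stand apart, and leaving out each library.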

Additional observations from a re-analysis of the deposited data

Results flagged for a closer look

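Of 10430 genes tested in both genotypes, 22 (0.211%) had midnight and noon libraries without overlap in opposite directions in the 2 genotypes, 17 of them lower in cK15 and higher in control hearts at midnight and 5 the reverse. Among the 74 genes looked at singly there were 2, Per3 and Tmem194; Tmem194 had been named for its small p for the difference. Per3 was lower in every cK15 midnight library (4.65, 4.15 and 4.28 FPKM) than at noon (7.25, 4.95 and 7.80 FPKM), and higher in every control midnight library (8.15, 6.29 and 6.45 FPKM) than at noon (6.06, 4.39 and 4.96 FPKM). The difference between the changes was -0.88 on the log2 scale (SE 0.28, unadjusted p = 0.0039, limma adjusted p = 1.00). Over the 6 times mean Per3 was highest at 4 pm in cK15 hearts (10.7 FPKM) and at 8 pm in control hearts (11.1 FPKM). Tmem194 (Nemp1 in RefSeq, for a nuclear envelope membrane protein) had 0.706, 0.477 and 0.593 FPKM at midnight and 2.18, 1.95 and 2.69 FPKM at noon in cK15 hearts. In control hearts it had 2.23, 2.04 and 1.83 FPKM at midnight and 1.64, 1.37 and 1.58 FPKM at noon, and the difference was -1.30 (SE 0.32, unadjusted p = 0.00038, limma adjusted p = 0.998). Neither difference passed the test over all genes.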

How the results depend on the processing

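The count of 13 cK15 calls lay within 1.5 times under a pseudocount of 0.1, a filter at 5 FPKM, median-ratio rescaling, quantile normalization, no trend or robust moderation, and the replicate block with only the 6 libraries (10 to 17 calls). It was 8 with no filter, 6 with only the midnight and noon libraries, 24 with all 36 libraries, 25 with the replicate block, 28 with a term for the libraries that stand apart, 0 without these libraries, and 6 without them in a fit of both genotypes. Leaving out 1 library gave 4 to 7 calls. For control hearts the count of 65 became 10 with only the midnight and noon libraries, 122 with the replicate block, 236 with the block and only these libraries, 268 with the term, and 26 to 44 with 1 library left out. For the difference between genotypes the count of 0 became 1 with no filter (Akr1cl, -0.70) and 3 with the term. In cK15 hearts the block added only the 12 genes named in the results, and for the difference none. In control hearts it added, among the genes named here, Ankrd1, Col6a1, Dnaja1 and Tcap (adjusted p = 0.0250, 0.0115, 0.0181 and 0.0166 in limma, against 0.0841, 0.0808, 0.0543 and 0.0917 without it).

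Genes whose uncalled changes near 0 turned direction were Clock, Csnk1e, Gsk3b, Rhobtb1, Rora and Tef. With 1 library left out, their log2 fold changes ran from -0.0225 to 0.184 for Clock, from -0.173 to 0.0305 for Csnk1e, from -0.0779 to 0.239 for Gsk3b, from -0.074 to 0.0882 for Rhobtb1, from -0.178 to 0.000135 for Rora and from -0.115 to 0.138 for Tef. Rhobtb1 was at -0.000374 under quantile normalization, and Tef at -0.00251 without the libraries that stand apart. The causes were not tested. Only 3 libraries per group and an unknown depth limit all of these values.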
